A study of Drosophila melanogaster with 4 samples.

Results

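The Enhancer of split complex is a cluster of Notch target genes on chromosome arm 3R of Drosophila melanogaster. The peaks described here are those of a deposited Scute ChIP-seq peak list that lie wholly between 21820000 and 21875000 on 3R of FlyBase release 5, the interval given for the complex, which ends near gro. This rule found 14 of the 1276 peaks in the list, or 14 of the 953 on the placed arms 2L, 2R, 3L, 3R, 4 and X. ChIP-seq sequences the DNA that an antibody brings down with a protein, and a peak is a stretch where these reads exceed the background that the peak caller estimates from input DNA. Whole embryos gave 4 libraries, of which 2 held ChIP DNA and 2 input DNA. The strain is written Y cn bw sp and the stage as 0 to 8 h, although the collection protocol speaks of 8 to 16 h.

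The ChIP and input libraries share a genotype. On the first chromosome it lists y[1] together with oc[R3.2]. On the second it lists Gr22b[1], Gr22d[1] and cn[1], then CG33964[R4.2], and also bw[1] with sp[1]. On the third it lists LysC[1], lab[R4.2] and MstProx[1], followed by GstD5[1] and Rh6[1]. There was no second antibody and no embryo lacking Scute among these groups. The antibody was a crude polyclonal guinea pig serum.

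Scute is a proneural basic helix-loop-helix (bHLH) activator that pairs with Daughterless, binds E-box DNA and promotes neural precursor fate. In cells beside a precursor, Notch signalling through Su(H) turns on the bHLH genes of the Enhancer of split complex, whose products recruit the corepressor Groucho and repress proneural genes and their targets. Proneural proteins are also known as direct activators of genes in the complex, which places the locus among the known targets of this protein family.

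In the NCBI RefSeq gene table of the release 6 assembly, used for names and neighbours only, 13 genes of the complex could be matched, and 19 genes lie from E(spl)mdelta-HLH to gro. The order begins with E(spl)mdelta-HLH, E(spl)mgamma-HLH and E(spl)mbeta-HLH, which are bHLH repressor genes. E(spl)malpha-BFM follows, then Kaz-m1, also called E(spl)m1, which encodes a Kazal-type protease inhibitor-like protein. Next come E(spl)m2-BFM, E(spl)m3-HLH, E(spl)m4-BFM, E(spl)m5-HLH, E(spl)m6-BFM, E(spl)m7-HLH and E(spl)m8-HLH, with gro, the Groucho gene, as their neighbour. The 7 HLH genes encode the repressors, and the 4 BFM genes encode Bearded family proteins, which are known to inhibit the ubiquitin ligase Neuralized in Notch signalling. The other 6 genes of the stretch are long noncoding RNA genes. The files carry no gene annotation and no release 5 annotation was used, so no peak is assigned to a gene, no level is given per gene, and the name of the locus rests on the interval of the rule.

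Every value below is 1 value per peak for the list as a whole. No replicate error can be given, the depth of the libraries is unknown, and no difference was tested, because the peaks were chosen from the same ChIP against input comparison that gave their scores. The score is the authors' own and was read as −log10 of the peak caller's p-value. In whole embryos, binding in few cells and weak binding in many cells cannot be told apart from such a value.

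Scute peaks were dense across the interval and absent on both sides of it. The 14 peaks ran from 21824851 to 21868628, a span of 43.8 kb, which left 4.85 kb without a peak at the start of the interval and 6.37 kb at its end. They covered 6906 bp, which is 12.6% of the interval. On the rest of 3R, measured from its first to its last peak, the covered share was 0.329%. The interval thus held 25.5 peaks per 100 kb against 0.837 on the rest of the arm, a 30.5-fold difference. It held 5.71% of the 245 peaks of 3R in 0.199% of the arm's span. These contrasts are with the arm as a whole. They do not set the locus apart from other dense groups of peaks, which are compared below.

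The flanks of the locus were empty over long distances. The nearest peak before it lay from 21475180 to 21475606, 349 kb from the first member, and its 427 bp scored 12.11. The nearest peak after it lay from 22362146 to 22362520, 494 kb from the last member, scoring 9.16 over 375 bp. Both flanking peaks were of ordinary strength, at ranks 469 and 786 among the 953 placed peaks, and neither was close to the edges of the rule, so small shifts of the edges change no member. Joining the peaks of 3R at gaps of at most 10 kb gave 145 groups, and the gaps between neighbouring groups had a median of 117 kb. The empty stretches beside the locus ranked 22nd and 13th in length among these 144 gaps.

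The peaks fell into 4 stretches when gaps above 5 kb were taken as breaks, and the strongest peak opened the last of them. Its midpoint lay 36.66 kb from the start of the 55.0 kb interval. For reference the peaks are numbered 1 to 14 by position. The first stretch held peaks 1 to 5 over 11.5 kb, peak 6 stood alone, peaks 7 and 8 formed a close pair, and the last stretch held peaks 9 to 14 over 12.5 kb. The gaps between these stretches were 7738, 5423 and 5458 bp. As called, the 3 strongest and 3 widest peaks of the locus were the same 3 peaks, and all were in the last stretch. Taken as a single peak, peaks 7 and 8 would span 816 bp, against 789 bp for peak 14, the third widest.

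**Figure D1:**
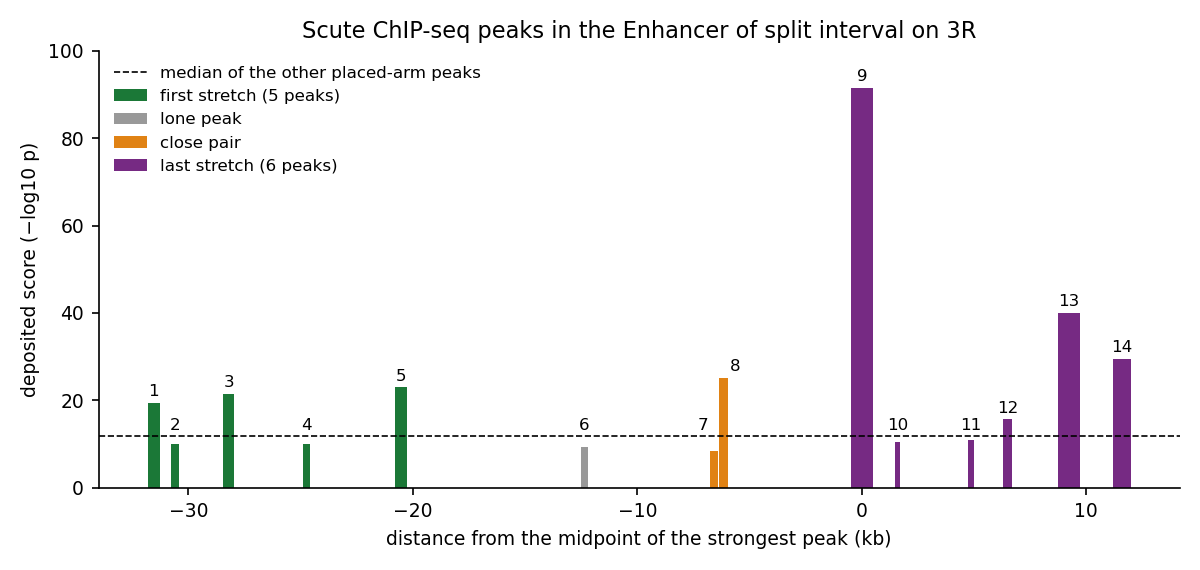
Deposited score (−log10 p, vertical axis) of the 14 peaks against distance in kb from the midpoint of the strongest, with each bar as wide as its peak, numbered by position and coloured by stretch. The dashed line is the median of 11.93 of the 939 other peaks on the placed arms; 8 of the 14 bars rise above it, and peak 9, at 91.47, stands far above the rest.

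Peak 9 was the strongest. It lay from 21856170 to 21857141, was 972 bp wide and scored 91.47, which is 51.37 above the next peak of the locus. It ranked 2nd on 3R, and only 2 placed peaks scored higher. The higher scores were 109.88, on 3R from 8889516 to 8890341, and 94.74, on 2R from 15993770 to 15994302. Both were narrower, at 826 and 533 bp. Outside the tandem array of wide peaks on 2L, 30 other placed peaks were at least as wide as peak 9. Their scores ran from 13.08 to 37.72 with a median of 21.74, so peak 9 scored above every peak of its width or more on the arms outside that array.

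The next 2 peaks in strength lay at higher coordinates in the same stretch. Peak 13, from 21865413 to 21866367, was 955 bp wide and scored 40.1, which gave it rank 32 among the placed peaks and rank 5 on 3R. Of the 32 other placed peaks outside the array that were at least as wide, 1 scored higher. Peak 14, from 21867840 to 21868628, was 789 bp wide and scored 29.55, rank 65 among the placed peaks. It stood out less for its width, since 15 of the 58 other placed peaks outside the array that were at least as wide scored higher. Peaks 13 and 14 were separated by 1472 bp, and the midpoint of peak 13 was 9.235 kb from that of peak 9.

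The remaining 2 of the 5 highest scores lay at lower coordinates, in separate stretches. Peak 8, from 21850306 to 21850711, was 406 bp wide and scored 25.24, rank 88 among the placed peaks. Its midpoint was 6.147 kb before that of peak 9. Peak 5, from 21835851 to 21836399, scored 23.04 over 549 bp, rank 105, and its midpoint was 20.53 kb before that of peak 9. As called, peak 8 was narrow for its strength: 65.9% of the other placed peaks were narrower, while 91.1% scored lower. That width leaves out peak 7, which ended 52 bp before peak 8. Together the 5 strongest peaks held 53.2% of the bases under peaks in the locus.

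The first stretch carried peaks of even strength, intermediate within the locus, alternating with weak ones. Peak 1, from 21824851 to 21825393, scored 19.48 over 543 bp, and peak 3, from 21828216 to 21828677, scored 21.54 over 462 bp. With peak 5 they formed a set of 3 peaks whose scores differed by less than 4 units, at ranks 105 to 132 among the placed peaks. Against the list these were strong, above 86.4% to 89.4% of the other placed peaks. Between them lay peak 2, from 21825905 to 21826224, with 9.93 over 320 bp, and peak 4, from 21831771 to 21832074, with 10.09 over 304 bp. The gaps along this stretch were 511, 1991, 3093 and 3776 bp. Peaks covered 18.9% of the stretch, against 29.1% of the last stretch, and its highest score was 23.04 against 91.47.

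The middle of the locus was the sparsest. Peak 6, from 21844138 to 21844472, was 335 bp wide, scored 9.36 and had no other peak within 5 kb. Peak 7, from 21849896 to 21850253, was the weakest of the 14, with 8.32 over 358 bp, and ended 52 bp before the start of peak 8. The list does not show whether such a close pair was called from continuous enrichment. If the pair is counted as a single peak, the locus held 13 peaks.

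Weak peaks also filled the space between the strong ones of the last stretch. Peak 10, from 21858143 to 21858371, was the narrowest of the locus, with 229 bp and a score of 10.58, and began 1001 bp after peak 9. Peak 11, from 21861368 to 21861637, scored 11.01 over 270 bp. Peak 12, from 21862948 to 21863361, was stronger, with 15.67 over 414 bp. The 6 members below the median of the other placed peaks, which are peaks 2, 4, 6, 7, 10 and 11, scored 8.32 to 11.01 and were 229 to 358 bp wide. The gap from each of them to the nearest stronger member ran from 52 to 5833 bp, with a median of 1155.5 bp.

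The locus mixed strong peaks with ordinary ones. The median score of the 14 peaks was 17.575, with an interquartile range of 10.2 to 24.7, against 11.93 and 9.89 to 15.69 for the 939 other placed peaks. Of the 14, 8 (57.1%) scored above that median of 11.93, against a background of 49.9% of all placed peaks. In the highest 10% of placed scores, above 23.83, there were 4 members (28.6%), namely peaks 8, 9, 13 and 14, where the background was 10.3%. In the whole list of 1276 peaks, with those off the placed arms, these 4 ranked 273, 3, 64 and 209. Peaks 8 and 14 were thus outside the highest 10% of that list. The background shares were read over the whole placed list, and the members' shares describe these peaks only, since position and score come from the same calls.

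No member scored between 11.01 and 15.67, a range chosen after the scores were seen that held 34.2% of the other placed peaks. At or above 15.67 lay 57.1% of the members and 25.5% of the others. At or below 11.01 the shares were 42.9% and 40.4%. Both cuts are scores of members at the edges of an empty range, which enlarges the contrast between these shares. Above the median of 11.93 lay 57.1% of the members, against 49.9% of all placed peaks. Where along the scale the members differ from the list was not tested.

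**Figure D2:**
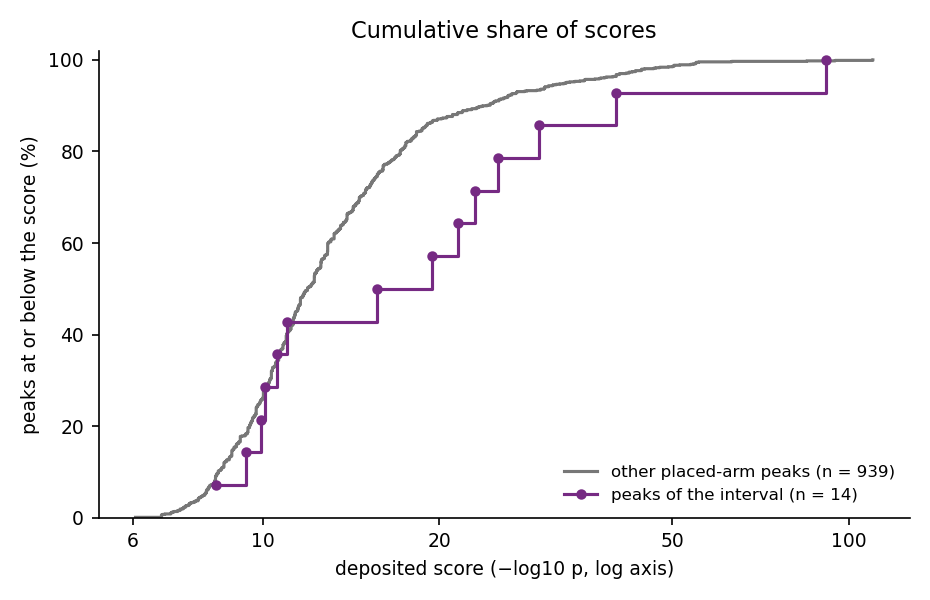
Cumulative percentage of peaks (vertical axis) at or below each deposited score (−log10 p, log axis) for the 14 peaks of the interval and the 939 other placed-arm peaks. The lines run together up to a score of 11.01, where 42.9% of the members and 40.4% of the others have been passed, and separate above it.

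Widths followed the scores. The median width was 410 bp against 323 bp for the other placed peaks, and 10 of the 14 members (71.4%) were wider than 323 bp, where the background over all placed peaks was 50.1%. Across the 14 peaks, Pearson's r between log10 width and score was 0.781 and Spearman's rho between width and score was 0.802. Over the 939 other placed peaks these were 0.67 and 0.651, and over the 908 of them outside the 2L array 0.518 and 0.619. The caller sets width and score from the same reads, so these are descriptions of the calls. The 5 strongest members were 406 to 972 bp wide (median 789 bp). The other 9 were 229 to 543 bp wide (median 335 bp). The ranks did not match throughout, since peak 8 was 4th in score and 8th in width, and peak 7 was 14th in score and 9th in width.

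**Figure D3:**
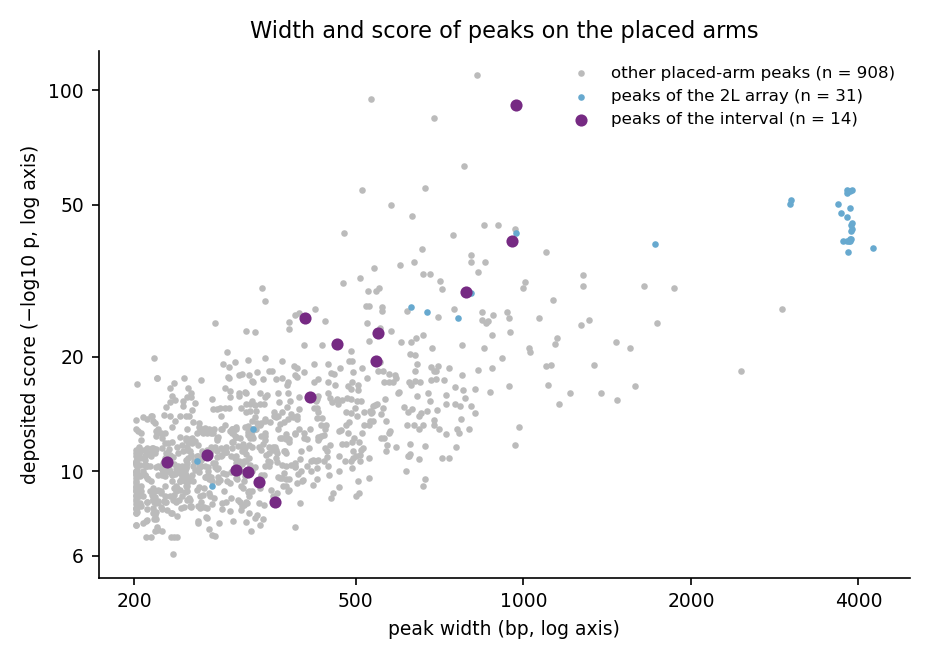
Deposited score (−log10 p, log axis) against peak width (bp, log axis) for the 953 placed-arm peaks, with the 14 peaks of the interval in purple and the 31 peaks of the 2L array in blue. Peak 9, at 972 bp and 91.47, lies above all other peaks of its width or more, while the weak members lie within the mass of narrow peaks.

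Scores of a peak caller depend on the background as well as on the height of the peak. In this list many scores match −log10 of the Poisson chance of more than a whole number of reads at a single mean of 55.7 reads, here called the common background. Within a tolerance of 0.006, 3 of the 14 members had such a score (21.4%, exact Clopper-Pearson 95% interval 4.66 to 50.8, which covers counting error over peaks only), against a background of 33.5% of all placed peaks. With a tolerance of 0.02 it was 4 of the 14 (28.6%), against a background of 43.7%. Among the other peaks of 3R the share at 0.006 was 25.5%. By construction, the tolerance of 0.006 takes up 2.35% of the score scale over the members' range, and that of 0.02 takes up 7.83%.

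The 3 members at the common background were peaks 1, 9 and 13, and for these a height can be read. Peak 9 corresponded to 266 reads, 4.77 times the mean. Peak 13 corresponded to 181 reads, or 3.25 times the mean, and peak 1 to 136 reads, or 2.44 times. The score of 40.1 was shared with 7 other peaks of the list and 19.48 with 4, while 91.47 occurred once. The other 11 members lay off this ladder of values, so their heights are not given, and neither of the 2 higher-scoring placed peaks lay on it. A height in reads is not a fold over input, since no input value per peak was used, and the reading assumes that the score was made with a Poisson mean, which no header states.

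Set beside the other dense groups of the list, the locus was long and strong rather than tightly packed when peaks were joined at 10 kb. Outside the 2L array, joining peaks at gaps of at most 10 kb gave 25 groups of at least 5 peaks, and the 14 members formed exactly 1 of them. It ranked 1st in span, at 43778 bp against 3334 to 36327 bp in the other 24, and 2nd in number of peaks, after a group of 22 on chromosome 4. Both ranks depend on the joining distance. At gaps of at most 5 kb the stretch with peak 9 held 6 peaks over 12.5 kb and ranked 5th in number and 3rd in span, and at 20 kb the locus ranked 2nd in both. Its highest score ranked 1st, against 10.7 to 63.13 elsewhere. Its median score ranked 3rd, with a range of 8.59 to 26.14 in the other groups.

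The packing of the peaks ranked low. The members lay at 0.32 peaks per kb, 24th of the 25 groups, where the others had a median of 0.5935. Peaks covered 15.8% of the span, 19th of the 25, against a median of 30.0% elsewhere. The median gap between neighbouring members was 2051 bp, while the median over the other groups' median gaps was 975.75 bp.

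Another difference was how far a single peak stood above the rest of its group. The step from the highest to the second score was 51.37 at the locus and 0.23 to 16.3 in the other 24 groups, with a median of 2.645. The largest step elsewhere belonged to the group on 2R from 6305427 to 6325741, whose highest scores were 63.13 and 46.83 and whose median of 26.14 was above that of the locus. The locus was also the most isolated of the 21 such groups with a group on both sides on the same arm. Its nearer flank was 349 kb away, against 341 kb for the next in order and a median of 46.9 kb. Among the 526 groups of any size on the placed arms with a group on both sides, that distance ranked 23rd.

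**Figure D4:**
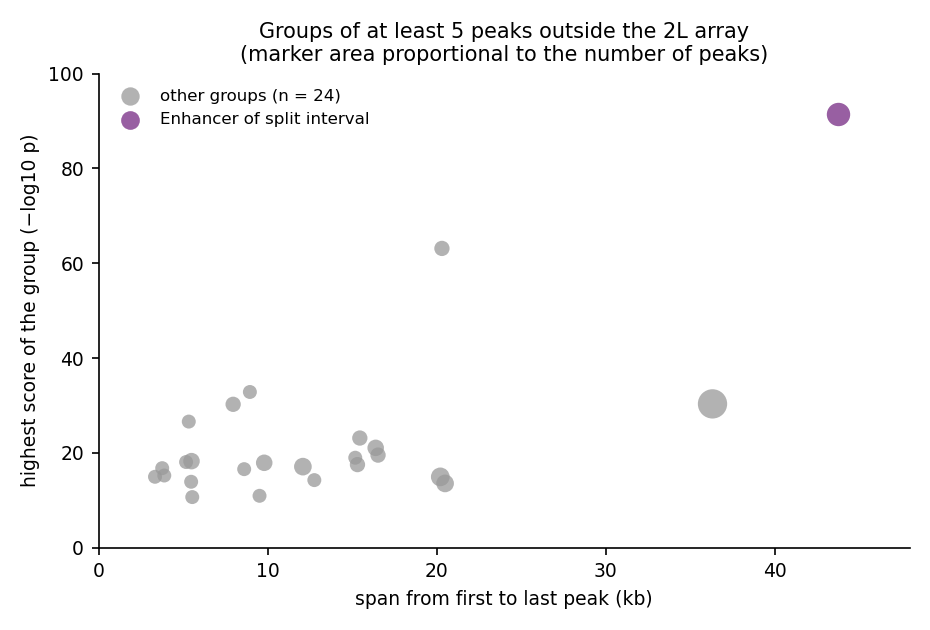
Highest deposited score (−log10 p) against span in kb for the 25 groups of at least 5 peaks outside the 2L array, with marker area proportional to the number of peaks. The group of the interval, at 43.8 kb and 91.47, is at the upper right, apart from the 24 others, of which the next highest score is 63.13.

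Windows as long as the interval gave the same picture of the peak number. With such a window started at each of the 908 other placed peaks outside the array, the median number of peaks per window was 2. A total of 12 windows held at least 14 peaks, and all 12 were on chromosome 4. On the other arms the highest number was 11. These windows overlap one another and are given as a description of the list.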

How the data were processed

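The authors deposited 1 peak list for the 2 ChIP and 2 input libraries. The tools named per the submitters' processing notes are CASAVA (1.7.0.2, 1.7.0.3), BWA and MACS2. Per the file headers, coordinates are FlyBase release 5 and the caller is MACS. The deposited −log10 p score is the authors' value; its unit was read from the values. Not given in the sources used here are the way replicates were combined, the calling threshold and duplicate handling.

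Peaks were ranked, joined and counted with Python 3.11.15, numpy 2.4.6, pandas 2.3.3, scipy 1.17.1 and matplotlib 3.10.9. The common background was the Poisson mean between 2 and 200 at which most scores lay within 0.006 of a ladder value. It held 44.4% of the list, against at most 12.4% at means over 0.5 away. On scores simulated from the same Poisson model, the scan found the known mean. Whether the deposited scores follow that model was not tested by this. The 2L array is the groups there with at least 2 peaks of 2500 bp or more. Position, width and score are given for all 14 members, the flanking peaks and placed peaks above the strongest member; the rule for naming members with ranks was the 5 highest scores. Members, lists and alternatives were chosen with earlier results of these data known. Promoter motifs were planned and not run, since no sequence was used. Depth is unknown.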

Additional observations from a re-analysis of the deposited data

How the results depend on the processing

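No paired analysis was possible because the list holds 1 value per peak and none per library; for the same reason no replicate was left out. Of 22 alternatives, 12 stayed close to the value in the report. Close meant within 1.5 times for counts and within the exact 95% interval for shares of peaks. Every rank that changed counted as moved. So did every other value of the covered share, which is a share of bases and not of peaks. With 14 peaks the exact interval is wide, so width shares of 57.1% and 78.6% both counted as close to 71.4%. Widening the locus by 25 kb could not change the count of peaks, since the nearest flanking peak lay 344 kb outside. The 12 is therefore no measure of how firm the results are. The number of peaks fell from 14 to 8 above the list's median score and to 5 in the highest 25%, by construction. The covered share was 9.25% above that median, 6.58% with the interval widened by 25 kb on each side, where no peak was gained, and 15.8% from first to last member. Members in the highest 10% of placed scores numbered 4, with 2 in the highest 5% and 7 in the highest 25%. The group's rank by number of peaks was 5 when joined at 5 kb, which breaks it into stretches of at most 6 peaks, and 2 at 10 and 20 kb. Its rank by span, 1 at 10 kb, was 3 at 5 kb and 2 at 20 kb, which were added after the data were seen. The share of members wider than the median ran from 57.1% to 78.6%. The promoter alternative was not run. Replicate spread and depth, which limit the weakest peaks, are unknown.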
